A study of Mus musculus with 6 samples.

Results

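Ltb, the gene of lymphotoxin beta, was examined together with 9 genes of the NF-kappa-B pathway in AtT-20 cells depleted of Dnmt1. These 10 genes were chosen on results of the same arrays: Ltb and Nfkbia had passed in the comparison of siDNMT1 with siNT when the arrays were paired by repeat (adjusted p = 0.00413 for Ltb and 0.0489 for 1 Nfkbia probe set, limma; 0.0609 and 1.0 unpaired), and the others are genes of the receptor, inhibitors, subunits and feedback of the same pathway. All differences of these genes between siDNMT1 and siNT are therefore given as a description, with no test. Every probe set that the platform annotation maps to a member symbol alone was used, which gave 17 of the 45101 probe sets and 9 of the 18193 genes with such a probe set. No probe set was mapped to Nfkb1 alone, and Nfkb1 is not analysed here. All 17 probe sets passed the filter on dim signals, and each would have passed it on its siNT mean alone. Just inside the threshold for choosing was the Nfkbia probe set at 0.0489, and just outside it lay another Nfkbia probe set with a paired adjusted p of 0.0701.

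AtT-20 is an established line of corticotroph cells from a tumour of the mouse pituitary, and both groups come from this 1 line. The siDNMT1 group received 20 nM of siDNMT1, the siRNA used for Dnmt1 knockdown, several times in the course of 8 days, and the siNT group 20 nM of siNT in the same way, and total RNA of each culture was hybridised to 1 Affymetrix array. The procedure was run 3 times independently, so that each group has 3 arrays and every siDNMT1 array has an siNT array of the same repeat. The comparison asks which transcripts change when the enzyme that maintains DNA methylation is reduced.

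Dnmt1 signal in repeats 1, 2 and 3 was 213.9, 142 and 300.9 in siDNMT1 cells, against 540.6, 701.4 and 619.2 in siNT cells, on its brightest probe set, so that 39.6%, 20.2% and 48.6% of the siNT signal were left. The groups did not overlap, which gives an exact two-sided permutation p of 0.1, the smallest that 3 arrays against 3 allow, and the difference of -1.54 (SE 0.24) passed in the paired fit but not without pairing (adjusted p = 0.0211 and 0.151, limma). With pairing it missed the threshold under trimmed mean scaling and quantile normalization (adjusted p = 0.0552 and 0.0514, limma). Signals are given throughout in arbitrary units after scaling every array to the same median, and differences are on the log2(scaled signal + 5.29) scale, on which the changes of dim probe sets come out too small. In bulk RNA of this kind fewer cells that make a transcript and less of it per cell cannot be told apart. Markers of corticotrophs were present in both groups. Their summed signal was 8638.7 to 13603.9 in siDNMT1 cells, against 10042.8 to 13657.1 in siNT cells. Most of it was Pomc, at 5576.1 to 10469.5 in siDNMT1 cells and 6958.3 to 10537.7 in siNT cells. The 6 markers differed by 0.02 (Tbx19), 0.13 (Pitx1), 0.08 (Pcsk1), -0.15 (Pomc), -0.35 (Neurod1) and -0.36 (Crhr1). Of 20 markers of lymphocytes, the cells best known for making lymphotoxin, and of myeloid cells, 10 passed the filter. Of these 10, 3 were higher and 7 lower in siDNMT1 cells, with a median difference of -0.18. The summed signal of the 18 markers with a probe set was 1014.2 to 1201.9 in siDNMT1 cells, against 1153.7 to 1221.1 in siNT cells. The pan-leukocyte gene Ptprc, at 6.71 in siDNMT1 cells and 9.92 in siNT cells, was below the filter on its brightest probe set. So were Cd3d and Cd4, with lower means in siDNMT1 cells, and Cd3g, Cd79b, Itgam, Fcer1g and Tyrobp, with higher ones. For Itgam (19.3 against 7.57) and Cd3g (18.1 against 8.96), both dim, every siDNMT1 array lay above every siNT array. For Cd8a (150.2 against 205.9, difference -0.46), which passed the filter, every siDNMT1 array lay below every siNT array. The 10 that passed the filter ran from -0.75 for Cd3e to 0.39 for Cd79a. The part of other cell types in the results was not tested beyond these values.

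NF-kappa-B factors are dimers of Rel family proteins that wait in the cytoplasm, bound by inhibitor proteins (the I-kappa-B proteins) or held back by their own precursor. Signals such as tumour necrosis factor lead to phosphorylation and destruction of the inhibitors in the canonical branch, which frees dimers that contain RelA. Lymphotoxin beta sits at the cell surface in a complex with lymphotoxin alpha and signals through the lymphotoxin beta receptor, which feeds the non-canonical branch as well, where the Nfkb2 precursor is processed and dimers with RelB form. The pathway is also known for transcribing its own brakes: Nfkbia, Nfkbie, Tnfaip3, Nfkb2 and Relb are textbook targets of the dimers that they restrain or build. It is best studied in immune cells and fibroblasts, and corticotrophs are known to respond to inflammatory cytokines.

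RefSeq promoter windows of mouse build GRCm38.p6, 250 bases before to 50 bases after each annotated transcription start, were found for 8 of the 10 genes. They were searched on both strands for the kappa-B consensus, the 10-base motif to which NF-kappa-B dimers bind. The motif was present in at least 1 window of 5 of these 8 genes, Ltb, Nfkbia, Nfkbie, Nfkb2 and Tnfaip3, and in none of those of Ltbr, Nfkbib and Rela. Of all 32851 windows in that set, 4.51% hold it, and of the 10866 tested genes with a window 6.34% do. The 150 bases before the start are shown for these 5 genes to set the matches in their context, 5′ to 3′ on the gene's own strand, with every kappa-B match in capitals.
Ltb, chr17:35194357-35194506, plus strand: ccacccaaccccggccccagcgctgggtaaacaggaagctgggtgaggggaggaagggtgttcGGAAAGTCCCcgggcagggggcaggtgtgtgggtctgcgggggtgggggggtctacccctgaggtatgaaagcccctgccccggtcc
Nfkbia, chr12:55492648-55492797, minus strand: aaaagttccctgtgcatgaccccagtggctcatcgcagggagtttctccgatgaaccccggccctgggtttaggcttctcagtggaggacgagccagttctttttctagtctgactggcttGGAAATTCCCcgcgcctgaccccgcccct
Nfkbie, chr17:45555550-45555699, plus strand: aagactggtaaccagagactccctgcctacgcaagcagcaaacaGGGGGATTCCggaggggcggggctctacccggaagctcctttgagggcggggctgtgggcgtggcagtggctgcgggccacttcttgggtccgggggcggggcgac
Nfkb2, first annotated start, chr19:46304587-46304736, plus strand: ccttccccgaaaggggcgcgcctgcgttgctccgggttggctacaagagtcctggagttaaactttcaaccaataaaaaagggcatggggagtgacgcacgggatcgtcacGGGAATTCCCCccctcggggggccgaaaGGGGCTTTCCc
Tnfaip3, first annotated start, chr10:19015411-19015560, minus strand: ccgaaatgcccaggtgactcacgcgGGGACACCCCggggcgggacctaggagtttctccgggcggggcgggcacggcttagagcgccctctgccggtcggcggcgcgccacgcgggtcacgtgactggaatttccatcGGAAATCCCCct

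The match of Ltb, GGAAAGTCCC, begins 87 bases before the start and that of Nfkbia, GGAAATTCCC, 29 bases before it, both with the consensus on the opposite strand. Nfkb2 has 3 overlapping or separate matches before its first start, at 39, 38 and 11 bases, of which the first reads as the consensus on both strands. Tnfaip3 has matches at 125 and 12 bases before its first start. The windows differ in CpG dinucleotides, the sites that Dnmt1 maintains in the methylated state. Ltb has 7 in its 300 bases, the median of all windows, at 0.233 times the number expected from its base composition. Nfkbia has 15, Nfkb2 25, Tnfaip3 22 and Rela 31 around their first starts, and 89.4% of all windows have fewer than Rela. DNA methylation was not measured here, and a motif match is no evidence of binding.

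**Figure D1:**
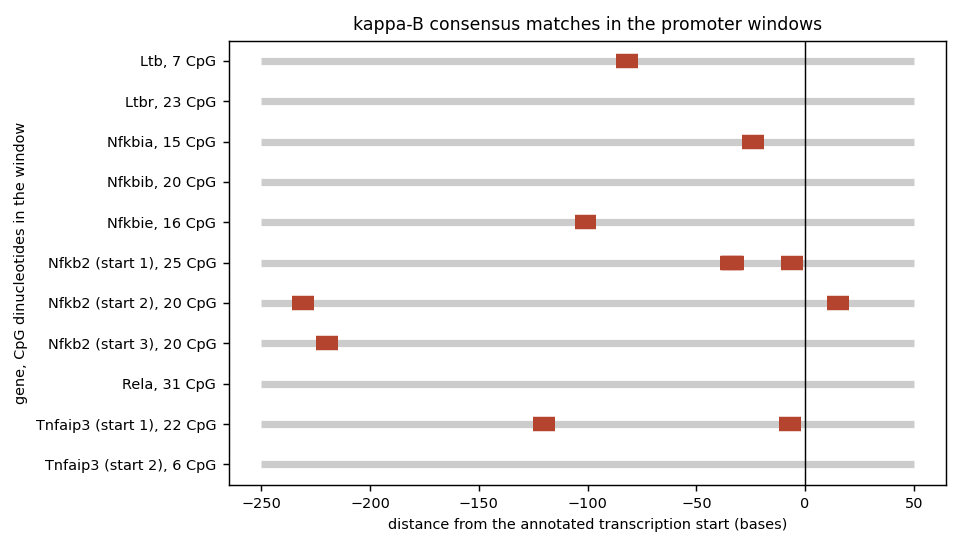
Positions of kappa-B consensus matches (red) in the promoter windows of the 8 member genes with a RefSeq window, with 11 annotated starts in all. The horizontal axis is the distance from the annotated transcription start in bases, the grey bars are the 300-base windows, and the number beside each name counts the CpG dinucleotides in the window. Ltb has 1 match and 7 CpG, whereas Ltbr, Nfkbib and Rela have no match.

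Ltb, encoding the membrane-anchored ligand, was the member with the largest difference. Its signal in repeats 1, 2 and 3 was 194, 240.5 and 294.1 in siDNMT1 cells, against 55.5, 64.3 and 70.8 in siNT cells. Every siDNMT1 array lay above every siNT array, and within each repeat the siDNMT1 signal was 3.49, 3.74 and 4.15 times that of its partner. The mean was 243 ± 50.1 in siDNMT1 cells and 63.6 ± 7.67 in siNT cells (SD, n = 3 each). The log2 difference was 1.84 with an SE of 0.21, or 0.17 in the paired fit. The differences of the 3 repeats were 1.71, 1.82 and 1.98. The paired p by which Ltb was chosen favours repeats that lie close together.

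Ltbr, encoding the receptor of the ligand, had nearly the same signal on all arrays. It was 330.7, 315 and 310.5 in siDNMT1 cells, against 346.8, 341.5 and 343.9 in siNT cells. All 3 siDNMT1 arrays were below all 3 siNT arrays, with a small difference of -0.11 (SE 0.15). Every SE here is that of the fit, which draws on the spread of other probe sets as well. The spread of Ltbr itself was narrow, with SDs of 10.6 around 318.7 in siDNMT1 cells and 2.67 around 344.1 in siNT cells. Over all tested probe sets the median difference was itself -0.06.

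**Figure D2:**
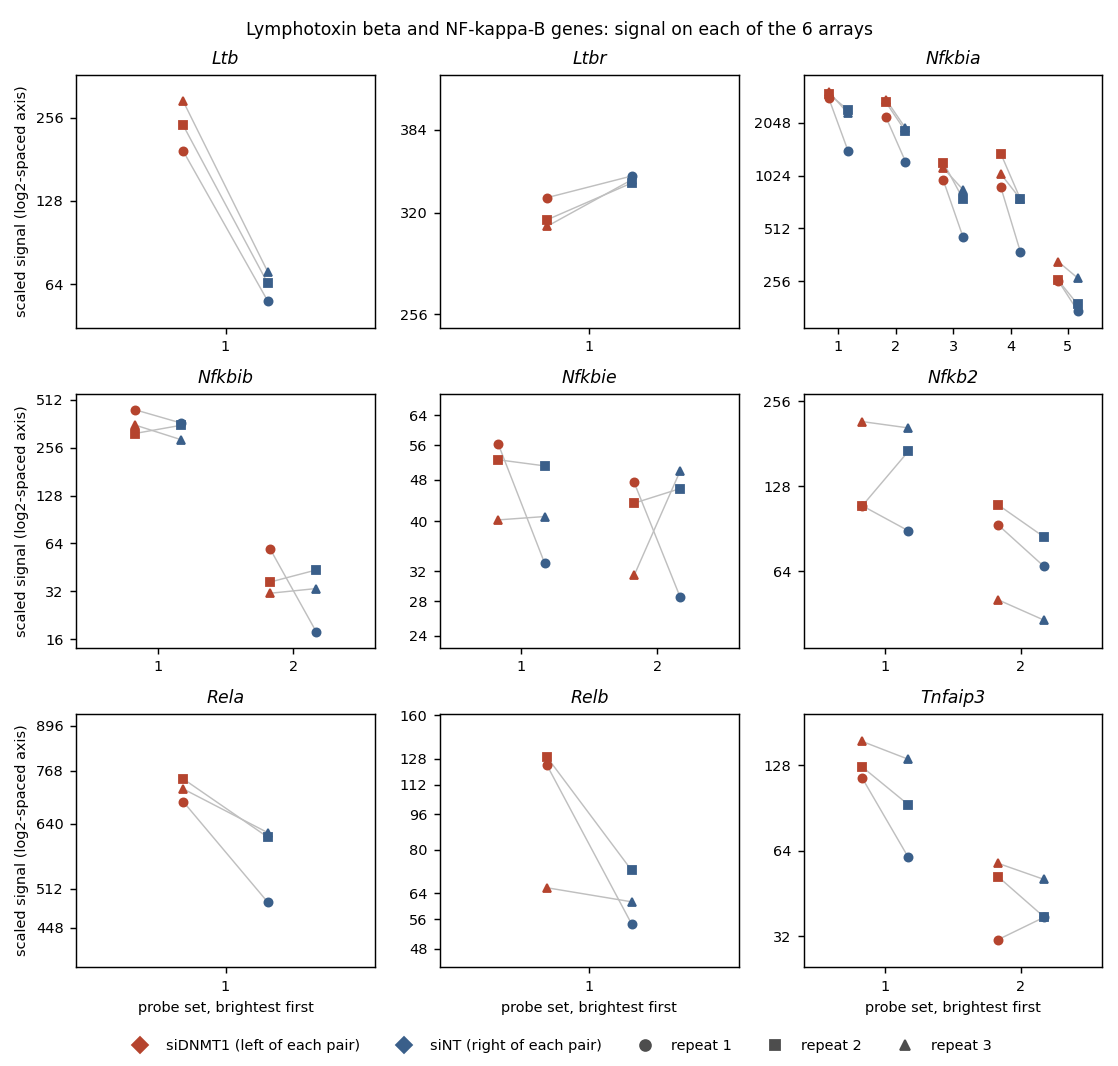
Scaled signal (arbitrary units, log2-spaced axis) of the 17 probe sets of the 9 member genes on each of the 6 arrays, with siDNMT1 in red on the left and siNT in blue on the right of each pair, a marker shape for each repeat and grey lines joining arrays of the same repeat. Ltb lies at 194 to 294.1 in siDNMT1 cells and 55.5 to 70.8 in siNT cells, and the siNT array of repeat 1 is the lowest siNT array on all 5 Nfkbia probe sets.

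Among the inhibitors, Nfkbia, whose product I-kappa-B alpha binds and retains RelA dimers and is resynthesised after each round of activation, had higher siDNMT1 values on all 5 probe sets and in all 3 repeats. The probe set that had passed in the paired fit read 2204.4, 2677.1 and 2780.7 in siDNMT1 cells, against 1230.1, 1833 and 1909.5 in siNT cells, without overlap. Its log2 difference was 0.64 (SE 0.18, paired SE 0.10). The brightest probe set read 2850.4, 2995.7 and 3089.7 in siDNMT1 cells, against 1414.2, 2424.9 and 2314.9 in siNT cells, and differed by 0.58. The other probe sets differed by 0.71, 0.84 and 0.44, and only the last, the dimmest of the 5, had groups that overlapped, at 257 to 330.4 in siDNMT1 cells and 172.9 to 266.2 in siNT cells. The 5 probe sets measure 1 gene and are not replicates. On all 5 the difference was largest in repeat 1, at 0.56 to 1.21, against 0.30 to 0.85 in repeat 2 and 0.31 to 0.54 in repeat 3. The siNT array of repeat 1 had the lowest Nfkbia signal of the 3 siNT arrays, and without it the 5 differences were 0.32 to 0.51. The 2 brightest Nfkbia probe sets had deposited signals of up to 4291.5, a range in which the arrays spread differences less. The log2 excess of repeat 2 over the other repeats in deposited signal had a median of 0.866 among probe sets whose mean was 200 to 500, and of 0.609 among those with a mean of 2000 to 4000.

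Nfkbib and Nfkbie, encoding I-kappa-B beta and I-kappa-B epsilon, showed no shift common to their probe sets and repeats. The brighter Nfkbib probe set read 444.8, 314.5 and 356.6 in siDNMT1 cells, against 366.8, 354.2 and 288.2 in siNT cells, a difference of 0.14 (SE 0.18) with the lower value in siDNMT1 cells in repeat 2. Its dimmer probe set differed by 0.39 (SE 0.34), from 1.48 in repeat 1 and -0.22 and -0.09 in repeats 2 and 3. The brighter Nfkbie probe set read 56.2, 52.5 and 40.2 in siDNMT1 cells, against 33.2, 51.1 and 40.8 in siNT cells (difference 0.23, SE 0.25), and the other differed by -0.01 (SE 0.28). With 1 array left out the Nfkbib differences ran from 0.00 to 0.25 and from 0.08 to 0.63, and those of Nfkbie from 0.10 to 0.37 and from -0.23 to 0.14. Values of both groups overlapped on all 4 probe sets. Nfkbie carries a kappa-B match before its start and Nfkbib does not.

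Of the subunit genes, Relb had the largest difference. Its product pairs with the processed Nfkb2 protein in the non-canonical branch. The Relb signal was 123.7, 129 and 65.8 in siDNMT1 cells, against 54.6, 72 and 61.2 in siNT cells. Repeats 1 and 2 thus had higher siDNMT1 values, 2.26 and 1.79 times those of their partners, whereas in repeat 3 both arrays were alike at a ratio of 1.07, and the groups overlapped. The log2 difference was 0.67 (SE 0.27), 0.96 without the siDNMT1 array of repeat 3 and 0.50 without that of repeat 2. Rela, encoding the transactivating subunit of the canonical dimer, read 690.3, 746.4 and 721.2 in siDNMT1 cells, against 488.7, 611 and 620.5 in siNT cells. These groups did not overlap, and the difference was 0.33 (SE 0.15), 0.22 without the siNT array of repeat 1.

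Nfkb2, which encodes the precursor p100 and its product p52, gave different results on its 2 probe sets. The dimmer one read 93.6, 110.2 and 50.8 in siDNMT1 cells, against 66.6, 84.7 and 43 in siNT cells, higher in each repeat although the repeats themselves lay so far apart that the groups overlapped (difference 0.35, SE 0.31, paired SE 0.19, and 0.10 to 0.65 with 1 array left out). The brighter one differed by -0.09 (SE 0.33), with 0.28, -0.62 and 0.07 in the 3 repeats, and by -0.43 to 0.18 when single arrays or repeats were left out. Its name marks it as a kind of probe set whose probes may also bind other transcripts, so its level cannot be assigned to Nfkb2 alone. A related mark, for probes shared by several transcripts, is borne by the brightest probe sets of Nfkbia, Nfkbib and Nfkbie. The Nfkbia probe set with a difference of 0.84 bears it too.

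Tnfaip3 encodes A20, a ubiquitin-editing enzyme that shuts off signalling upstream of the inhibitor kinase. The brighter Tnfaip3 probe set read 115.3, 126.2 and 155.2 in siDNMT1 cells, against 60.6, 92.9 and 134.3 in siNT cells, higher in all 3 repeats with overlapping groups. It differed by 0.50 (SE 0.27, paired SE 0.19), and by 0.22 without the siNT array of repeat 1. The dimmer probe set read 31.1, 51.9 and 57.8 in siDNMT1 cells, against 37.3, 37.4 and 50.7 in siNT cells, and differed by 0.12 (SE 0.28), or by -0.03 to 0.36 with 1 array left out. Of its annotated starts, only the window of the first holds kappa-B matches.

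Over the 17 probe sets, 14 had higher and 3 lower mean values in siDNMT1 cells, with a median difference of 0.39, against 11024 higher and 15998 lower and a median of -0.06 over the 27022 probe sets tested. In limma without the block and with the main scaling and filter 0 of the 17 passed, as did 0 of all tested probe sets (percent called: 0%), of which 357 were higher and 668 lower at an unadjusted p under 0.05. Ltb passed without the block under trimmed mean scaling, quantile normalization, the filter at the 60th percentile, without siDNMT1 array 1 and with all probe sets of a gene averaged. It did not pass without the block under no scaling, either other pseudocount, no filter or no variance trend. Nor did it pass there with any other single array left out. Averaging left its values unchanged, as Ltb has 1 probe set. Because Ltb was chosen on this comparison, these calls are a description and lend it no support. Pairing the arrays by repeat gave 2 of 17, Ltb and 1 Nfkbia probe set, against 0.0851% of all tested probe sets (0.0296% counting higher ones only), and those calls are what chose the members. Arrays of both groups did not overlap, with siDNMT1 higher, on 6 of 17 probe sets (Ltb, 4 of Nfkbia and Rela), against 2.96% of all tested probe sets, and with siDNMT1 lower on 1, Ltbr, against 5.78%. Values were higher in all 3 repeats on 10 of 17, against 10.1%. Outside Ltb and Nfkbia these were Rela, Relb, the dimmer Nfkb2 and the brighter Tnfaip3 probe set. Ltb and Nfkbia chose the set by their values in this comparison, and the 5 Nfkbia probe sets measure 1 gene. The counts and the median over the 17 are therefore not independent of that choice. By gene, on the brightest probe set, 7 of 9 were higher and Ltbr and Nfkb2 lower, with a median of 0.33 that stayed between 0.33 and 0.40 under 4 scalings. Under each of those scalings the same 7 genes were higher. Ltb and Nfkbia, which were chosen on these values, are among them. Over all 13477 tested genes, on the brightest probe set, 5257 were higher and 8220 lower in the main scaling, with a median of -0.06. This background depends on the scaling. Over all tested probe sets the median was 0.00 with trimmed mean scaling, -0.01 with quantile normalization and -0.03 with no scaling.

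Differences of the members were largest in repeat 1. The median over the 17 probe sets was 0.68 in repeat 1, 0.36 in repeat 2 and 0.22 in repeat 3, against 0.02, -0.11 and -0.07 over all tested probe sets. Ltb alone among the members with a difference above 0.30 was lowest in repeat 1. The siNT array of repeat 1 was the lowest siNT array on 14 of the 17 probe sets, against 46.7% of all tested probe sets. Leaving out the lowest siNT array lowers a difference by construction, and the Ltb difference was then 1.75. The part of that array in the other differences was not tested.

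**Figure D3:**
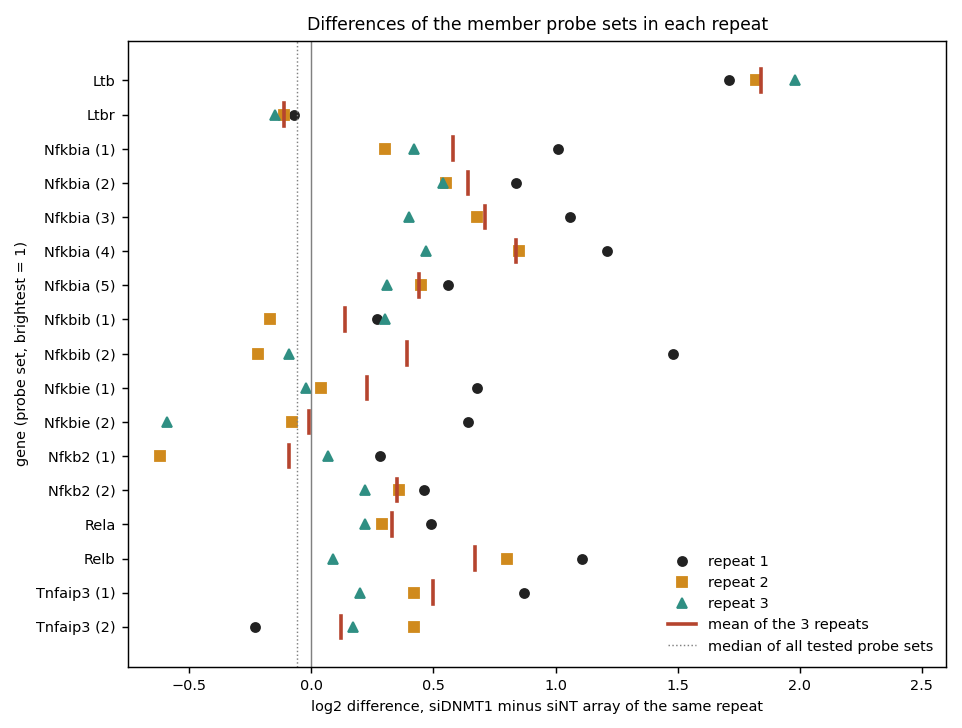
Log2 differences (siDNMT1 minus the siNT array of the same repeat) of the 17 member probe sets, with a marker for each repeat and a red bar at the mean of the 3 repeats. Ltb lies at 1.71 to 1.98, Ltbr near the median of all tested probe sets (dotted, -0.06), and for Nfkbia, Relb and the brighter Tnfaip3 probe set repeat 1 is farthest to the right.

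Ltb lies in the major histocompatibility region of chromosome 17 beside Tnf and Lta, and the nearest 3 annotated protein-coding genes with a probe set on either side were read as well. Tnf, the gene of tumour necrosis factor and the nearest neighbour on one side, read 44.4, 128.7 and 64.3 in siDNMT1 cells, against 6.62, 51.5 and 25.8 in siNT cells. Within repeats the siDNMT1 signal was 6.71, 2.5 and 2.5 times that of the partner, while the levels of the repeats differed and the groups overlapped. The difference was 1.49 (SE 0.52, paired SE 0.26) and did not pass over all tested probe sets (adjusted p = 1.0 unpaired and 0.0827 paired, limma). Its siNT signal of repeat 1 was close to the pseudocount, so the size depends on it, and without that array the difference was 0.88. Lta, encoding the partner of lymphotoxin beta in the surface complex, was dim, at 2.46 to 6.05 in siDNMT1 cells and 2.93 to 4.01 in siNT cells, and was not tested. Nfkbil1, an I-kappa-B-like gene beyond Lta, differed by -0.22 (SE 0.21), and by -0.08 without siDNMT1 array 2. On the other side Lst1 differed by 0.22 (SE 0.32), Aif1 was below the filter and Prrc2a differed by -0.13 (SE 0.17). Ltb and Tnf were thus the only tested genes among these with higher values in all 3 repeats. The Tnf window of 300 bases holds no kappa-B match in the sense used here, and 11 CpG.

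Among 13476 other tested genes, Mmp9, encoding a matrix metalloproteinase reported as an NF-kappa-B target, had the pattern most like that of Ltb over the 6 arrays (Pearson's r = 0.994), followed by Usp49, Xrcc3, Fsip1 and Dcbld1 at 0.988 to 0.990. These arrays form 2 groups, so r mostly records the step between them. Mmp9 read 48.5, 51 and 52.4 in siDNMT1 cells, against 37.5, 37.3 and 40.1 in siNT cells, a difference of 0.36 (SE 0.22) that did not pass (adjusted p = 1.0, limma). The differences of the other 4 were 0.31 to 0.74, all smaller than that of Ltb.

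Outside the members, 145 genes of the pathway in 7 lists were examined, of which 130 had a probe set and 100 passed the filter on their brightest one. Of these 100, 0 passed in limma without the block and 0 with it. At an unadjusted p under 0.05 without the block 9 were higher and 1 lower, against 1.32% of all tested probe sets higher and 2.47% lower, and in the paired fit 15 were higher and 2 lower, against 2.45% and 5.39%. The 9 higher genes became 3 without siNT array 1, 4 without siDNMT1 array 2 and 5 without siDNMT1 array 1 or 3. They became 1 with no scaling and 14 with trimmed mean scaling or quantile normalization, all without the block. The count over all 27022 tested probe sets moved as well. Its 357 higher ones became 301 without siNT array 1 and 282 without siDNMT1 array 2. Without siDNMT1 array 1 they became 307, and without siDNMT1 array 3 they became 412. There were 153 with no scaling, 606 with trimmed mean scaling and 584 with quantile normalization. Over the 100 genes the median difference was 0.03, with 55 higher and 45 lower. Arrays of both groups did not overlap on 6 of the 100 with siDNMT1 higher, against 2.96% of all tested probe sets. With siDNMT1 lower they did not overlap on 4, against 5.78%. The genes named below are those with the smallest unadjusted p in each list, and none passed after adjustment. Among the 100, Cd70, Ikbke, Chst4 and Pdlim2 passed the filter only through their siDNMT1 arrays, so that a higher value in siDNMT1 cells was a condition of their being listed. All 4 are counted among the 55 higher genes, and Chst4 also among the 15 of the paired fit. Ranges given with a difference are those over the fits that leave out 1 array, where they move it by over 1.5 times.

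Of 8 tested ligands of the tumour necrosis factor family 3 had higher and 5 lower values (median -0.11). Besides Tnf, Cd70 differed by 0.55 (SE 0.51, range 0.02 to 0.93), and its siNT signal was 3.28 in repeat 1, the array without which it was 0.02. Tnfsf13b, the B cell survival factor, differed by -0.33 (SE 0.32, range -0.49 to -0.07) and Tnfsf10, the death ligand TRAIL, by -0.18 (SE 0.28, range -0.36 to 0.03), with 0.18 and -0.39 on its other tested probe sets. Among 14 receptors 6 were higher and 8 lower (median -0.08). Tnfrsf1b, the second receptor of tumour necrosis factor, read 76.7, 67.1 and 73.9 in siDNMT1 cells, against 46.5, 55 and 49.2 in siNT cells, without overlap (difference 0.49, SE 0.21, adjusted p = 1.0, limma), and its other probe set differed by 0.55. Tnfrsf19 was at -0.61 (SE 0.35, range -0.93 to -0.26) but at 0.30 on another probe set. Tnfrsf18 was at 0.55 (SE 0.42, range 0.09 to 0.91), the low end without siNT array 1. Tnfrsf12a, the receptor of TWEAK, was at -0.32 (SE 0.20) without overlap, and at -0.04 on its other probe set. Of 27 adaptors, ubiquitin ligases and kinases 16 were higher and 11 lower, with a median of 0.02. The linear ubiquitin ligase subunit gene Rbck1 differed by 0.40 (SE 0.19) and the kinase gene Ikbke by 1.06 (SE 0.70, range 0.36 to 1.98). The adaptor genes Bcl10 and Myd88 differed by 0.30 each (SE 0.17 and 0.20), and by 0.17 and 0.11 without siNT array 1. The other 3 Bcl10 probe sets were at 0.16, 0.10 and 0.13. Ikbke was dim and uneven, at 38.1, 80.4 and 3.74 in siDNMT1 cells against 14.7, 11.1 and 5.97 in siNT cells.

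Other genes of the Rel and I-kappa-B family and of feedback gave small differences. Bcl3, an atypical I-kappa-B protein that acts with p52 in the nucleus, read 256.7, 226.3 and 249.1 in siDNMT1 cells, against 203.1, 175.2 and 185.6 in siNT cells, without overlap (difference 0.37, SE 0.17). Nfkbiz differed by 0.29 (SE 0.27, range -0.02 to 0.47), and by -0.02 and 0.14 on its other probe sets. Nfkbid differed by 0.12 (SE 0.27, range -0.09 to 0.31). Of 15 other negative regulators 5 were higher and 10 lower (median -0.09). Among the higher ones was Tnip1, whose product binds A20 and helps it to restrain signalling. It read 850.5, 1242.4 and 991.2 in siDNMT1 cells, against 657.7, 896.9 and 730.8 in siNT cells, and its difference was 0.37, 0.47 and 0.44 in the 3 repeats (mean 0.42, SE 0.18, paired adjusted p = 0.301, limma). Tnip2 was at -0.51 (SE 0.33, range -0.72 to -0.14), Tax1bp1 at -0.43 (SE 0.26, range -0.60 to -0.26, and 0.19 on another probe set) and Rnf11, a partner of A20, at -0.35 (SE 0.18). The other tested Rnf11 probe sets were at -0.34, 0.16 and -0.40. Kappa-B matches were present in windows of 2 of 3 tested other Rel and I-kappa-B genes with a window, Bcl3 and Nfkbid, and of 3 of 11 negative regulators, Tnip1, Tax1bp1 and Cyld. These 5 genes differed in either direction, with Cyld at -0.22 (SE 0.32).

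Reported targets of canonical signalling had higher values in 19 of 27 tested genes, with a median of 0.19 that ran from 0.19 to 0.25 under 4 scalings. Over all tested probe sets the median was -0.06 in the main scaling. There it was 0.00 with trimmed mean scaling, -0.01 with quantile normalization and -0.03 with no scaling. Another 13 of the reported targets were too dim to test, among them Icam1, Il6, Ptgs2 and Nos2. With the smallest p were the proto-oncogene Myc at 0.57 (SE 0.20), the immunoproteasome gene Psmb9 at 0.59 (SE 0.23), the cyclin D1 gene Ccnd1 at 0.71 (SE 0.29, range 0.43 to 0.99) and the acute phase gene Saa3 at 0.43 (SE 0.19). Each was higher in 3 of 3 repeats and none passed (adjusted p = 1.0 for each, limma unpaired). Myc read 94.4, 91.9 and 114.5 in siDNMT1 cells, against 66.5, 61.7 and 68.5 in siNT cells, and Psmb9 read 119.6, 156.5 and 97.8 in siDNMT1 cells against 74.8, 97.3 and 69.3 in siNT cells, neither with overlap. The direction was not shared by all targets, as a few named after their values were seen show: Sod2, a mitochondrial dismutase gene often used as an NF-kappa-B readout, was at -0.19, Ccl5 at -0.51 without overlap and Cxcl1 at -0.02. Of the targets reported for the lymphotoxin beta receptor only 5 could be tested. Madcam1, an addressin of lymphoid vessels, was at 0.64 (SE 0.26), Chst4, with a siNT mean of 11.7 below the filter, at 1.04 (SE 0.48), the chemokine genes Cxcl12, which completes the list, and Cxcl13 at 0.24 and -0.93, and Clu at -0.38 (SE 0.17). On these probe sets the groups did not overlap for Madcam1, which was higher, and for Clu, which was lower. Cxcl13 differed by 1.87, -3.06 and -1.61 in the 3 repeats (range -1.68 to -0.34), and by 0.11 on its other probe set.

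**Figure D4:**
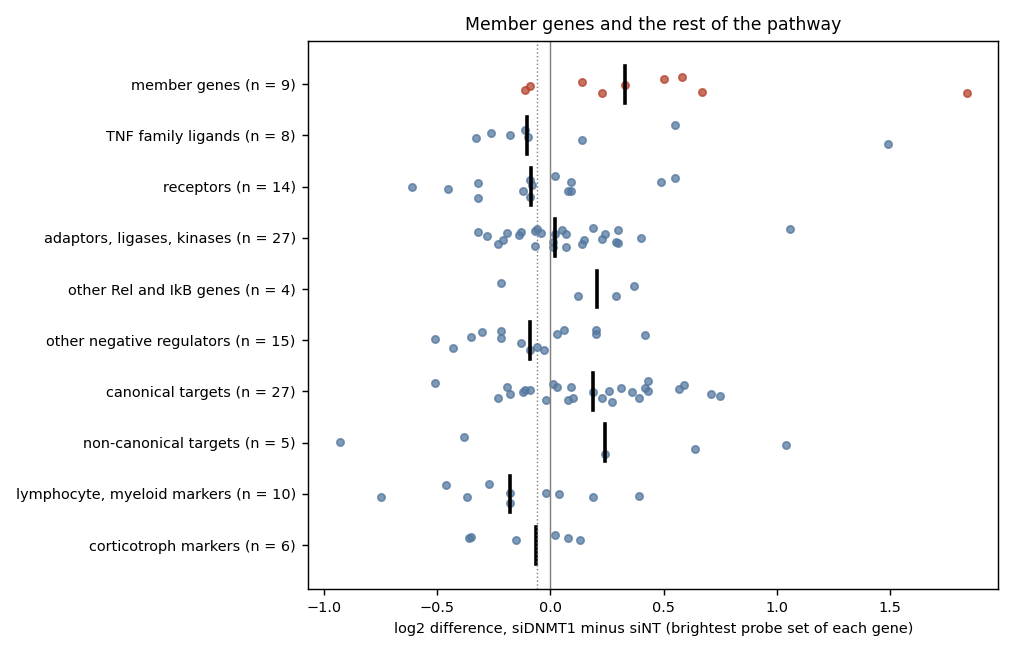
Log2 differences (siDNMT1 minus siNT, brightest probe set of each gene) of the 9 member genes in red and of the tested genes of 7 pathway lists and 2 marker lists in blue, 1 point a gene, with a black bar at each median and a dotted line at the median of all tested probe sets. The medians are 0.33 for the members, 0.19 for canonical targets, -0.11 for ligands and -0.18 for lymphocyte and myeloid markers, and the far right points are Ltb and Tnf.

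Genes with and without a kappa-B match in the promoter window were also set side by side across the array. With the members left out, 684 tested genes with a match had a median difference of -0.05, with 299 higher and 385 lower, and 10174 tested genes without one had a median of -0.06, with 3898 higher and 6276 lower. At an unadjusted p under 0.05 without the block there were 17 higher and 13 lower genes among those with a match and 122 higher and 235 lower among those without. Whether these proportions differ was not tested.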

How the data were processed

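Expression was measured on 6 Affymetrix arrays of AtT-20 cells, 3 siDNMT1 and 3 siNT. The authors deposited 1 linear intensity per probe set and array, made with GCOS per the submitters' processing notes. For GCOS, the version, settings and scaling target are not stated by the sources used here, and detection calls were not used here. Deposited medians were 19.8 to 36.3 and the 2% trimmed means 70.2 to 140, so each array was scaled to a common median log2 value. Signals were analysed as log2(scaled signal + 5.29), where 5.29 is the 20th percentile of all deposited intensities. Of 45101 probe sets 64 controls were left out, and 27022 with a mean scaled signal of at least 16.8, the 40th percentile, were tested. The number of arrays limits the precision.

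Symbols came from the platform annotation. A single symbol was given for 34945 probe sets, several for 932 and none for 9160, controls not counted. Where 1 probe set stands for a gene it is the brightest. The fit was limma 3.58.1 in R 4.3.3 (lmFit, eBayes with trend, two-sided, Benjamini-Hochberg over all tested probe sets, threshold 0.05) without a block, and, as the stated alternative, with the repeat number as a block, the paired fit. Titles and design text give each repeat as a separate round of treatment. Deviations from the group means correlated at 0.173, 0.231 and 0.257 between same-numbered arrays and at -0.179 to -0.0283 between others, so the numbers pair the arrays. Promoter sequences and gene order came from RefSeq tables of GRCm38.p6, searched with Python 3.11.15.

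The members and lists were chosen with earlier results of these data known. Named genes were all members, Dnmt1, up to 4 tested genes per list by smallest unadjusted p, the 5 genes most correlated with Ltb and 3 neighbours on either side of it. Alternatives were other scalings, pseudocounts, filters, no variance trend, all probe sets of a gene averaged, and arrays or repeats left out.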

Additional observations from a re-analysis of the deposited data

How the results depend on the processing

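The number of member genes with higher values in siDNMT1 cells was 7 of 9, and 7 or 8 under every alternative tried, Nfkb2 being the gene that changed side. With all arrays in, the block, the filters and the variance trend leave each difference as it is, so they could not change this number. Ltb and Nfkbia, chosen on these values, are among the 7. Over the 14 settings that can move a log2 difference, 227 of 238 member differences moved by less than the SD between repeats and 11 by more. The Ltb difference ran from 1.63 with the larger pseudocount to 1.98 without siDNMT1 array 1. Over all tested probe sets 0 were called without the block. The replicate block gave 23, or 3 with trimmed mean scaling and 4 with quantile normalization. Without the block, trimmed mean scaling, quantile normalization and the filter at the 60th percentile gave 1 each, which was Ltb, and no scaling gave 2, neither a member. Leaving out single arrays gave 0 to 4 (2 without siDNMT1 array 1, with Ltb among them, 4 without siDNMT1 array 3), and whole repeats in the paired fit 34 to 266 (41 without repeat 1, 34 without repeat 2, 266 without repeat 3). Without repeat 3 the 17 member probe sets held 6 calls, for Ltb, Nfkbia and Relb. Unadjusted p-values under 0.05 numbered 357 higher and 668 lower, and 606 higher and 499 lower with trimmed mean scaling. Among pathway genes outside the members 0 were called in either fit, and 0 with single arrays and 0 to 4 with whole repeats left out: Cxcl13 without repeat 1 (-2.33) and Tnf (1.65), Ikbke, Ccl2 and Cxcl10 without repeat 3, all in the paired fit. With all repeats in, the replicate block changed no call of a named gene but those of Ltb, Nfkbia and Dnmt1. Dnmt1, whose alternatives were added after the data were seen, stayed at -1.54 and passed with the replicate block, but not with the block under trimmed mean scaling or quantile normalization (-1.48 and -1.46, adjusted p = 0.0552 and 0.0514, limma). It ran from -1.79 to -1.26 with single arrays left out, passing without siDNMT1 array 3, and from -1.79 to -1.17 with whole repeats left out of the paired fit (-1.65 without repeat 1), passing each time. Signs turned, with arrays or repeats left out, for the dimmer probe sets of Nfkbib (-0.15 to 0.70), Nfkbie (-0.34 to 0.28) and Tnfaip3 (-0.03 to 0.36), the brighter one of Nfkb2 (-0.43 to 0.18), Cd70 (-0.09 to 0.97), Tnfsf10 (-0.50 to 0.09, and -0.36 to 0.03 with single arrays), Nfkbiz (-0.02 to 0.48, and -0.02 to 0.47 with single arrays), Nfkbid (-0.09 to 0.31), Cxcl13 (-2.33 to 0.13), Prrc2a (-0.26 to 0.00) and Lst1 (-0.31 to 0.57, and -0.05 to 0.48 with single arrays). The causes were not tested. Detection calls were not used here, so dim signals have no stated background.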
